A study of Mus musculus with 8 samples.

Results

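The 45 genes described here copy DNA in S phase or prepare the cell to do so. They were taken by symbol and fall into 7 classes: origin licensing and the replicative helicase (13 genes), the sliding clamp and its loader (6), polymerases and primase (9), single-strand binding and Okazaki fragment joining (5), chromatin copying (4), nucleotide supply (5) and G1/S regulators (3). All 45 were found among the 23293 mouse genes of the deposited table, and all 45 were among the 10854 genes tested, whose mean FPKM reached 1 or more. FPKM count sequenced fragments relative to the length of the transcript and to the total mapped. No member was listed at 0 in any library.

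The cells were c-Kit-positive (Cd117) bone marrow cells, a fraction rich in stem and progenitor cells, bead-selected from individual mice 4 weeks after PIpC, the agent that switches on the Mx1-cre recombinase. There were 4 groups of 2 mice. Controls carried a floxed Smc3 allele (Smc3 fl/+) and no Mx1-cre. Mice labelled Smc3 del/+ carried Mx1-cre and 1 deleted copy of Smc3, which encodes a subunit of the cohesin ring. Flt3-ITD mice carried Mx1-cre and the internal tandem duplication of the receptor tyrosine kinase Flt3, an allele found in acute myeloid leukaemia. The combined mice carried Mx1-cre, Flt3-ITD and the Smc3 deletion, which the genotype label writes Smc3 fl/del and the title calls het. Mx1-cre acts in other blood cells as well as in stem cells, and only the controls lacked it, so that genotype and Mx1-cre cannot be told apart in any comparison with control.

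Replication starts when the origin recognition complex, Cdc6 and Cdt1 load the Mcm2 to Mcm7 ring onto DNA in G1. In S phase, GINS and Cdc45 turn that ring into the moving helicase, primase and polymerase alpha lay down primers, replication factor C loads the Pcna clamp, and polymerases delta and epsilon extend the strands. Cyclin E and E2F factors switch many of these genes on at the G1/S boundary, and in marrow they are well known for high levels in dividing progenitors, erythroid ones among them.

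Some facts of the libraries bear on the values. Smc3 mRNA was not lower in the libraries labelled with its deletion: it was at 135 and 133 FPKM in those labelled Smc3 del/+ and 119 and 112 in the controls (log2 0.21, SE 0.152, adjusted p = 1), and at 103 and 136 in combined libraries beside 94.7 and 89.9 in Flt3-ITD (log2 0.36, SE 0.152, adjusted p = 0.453). Directions for this genotype therefore rest on the labels. Xist, expressed from the inactive X chromosome of females, ran from 499.8 to 657 FPKM in the control and combined libraries and from 0.140 to 0.936 FPKM in the other 4, so that sex also differs in Smc3 del/+ and in Flt3-ITD against control and in combined against Flt3-ITD. The pair of combined libraries differed most: the SD over all genes of the log2 difference within a pair was 0.701 there, against 0.350 to 0.409 in the other groups. In these bulk samples fewer cells of a type and less RNA per cell cannot be told apart.

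In control cells the members' mean levels ran from 9.84 FPKM for Gins3 to 385.2 FPKM for Pcna. Pcna, Rrm2, Rrm1, Mcm6, Mcm7, Slbp and Mcm4 were above 100 FPKM, and 35 lay between 20 and 100 FPKM. Added up, the members gave 2878 ± 44.4 FPKM (SD, n = 2) in control, 2871 ± 56.9 in mice labelled Smc3 del/+, 1973 ± 71.4 in Flt3-ITD mice and 2167 ± 582 in combined mice. Those sums were 0.500%, 0.530%, 0.313% and 0.348% of all mouse FPKM. The combined sum was 1756 FPKM in replicate 1 and 2578 in replicate 2.

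**Figure D1:**
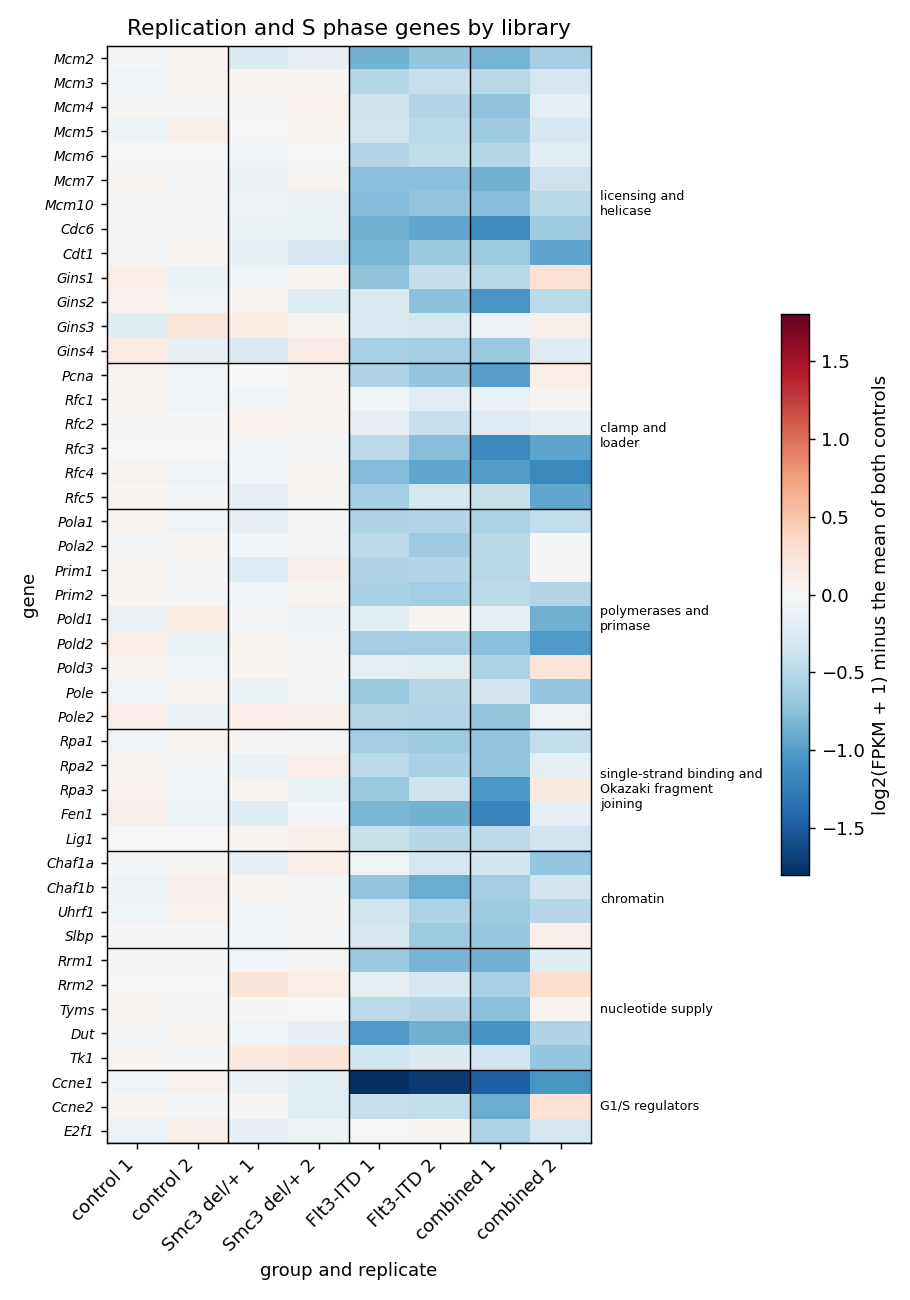
Log2 difference of each of the 45 genes (rows, by class) from the control mean in each of the 8 libraries (columns), on the log2(FPKM + 1) scale, with blue below and red above control. The pair of Flt3-ITD columns is blue through all classes apart from a few genes such as E2f1, and combined replicate 1 is bluer than replicate 2.

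Replication genes of all 7 classes were called lower in Flt3-ITD cells than in controls. Of the 45 members, 19 were called lower and 0 higher by limma at a Benjamini-Hochberg adjusted p under 0.05, and 44 had a lower mean. Over all genes tested, 9.5% were called lower and 8.51% higher. The members' median log2 difference was -0.52, or 68.4% of the control FPKM at the median member, beside a median of -0.01 over all genes. Member values ranged from -1.76 for Ccne1 to 0.03 for E2f1. In 41 of 45 both Flt3-ITD libraries lay below all 4 libraries without Flt3-ITD, as did 28.6% of all genes. The count moved with each library left out. It fell without a control, a Flt3-ITD library or one labelled Smc3 del/+, and rose without a combined library. The share of all genes called lower moved the same way. Most of the 19 calls were lost without a control or a Flt3-ITD library. In those fits the share of members called lower was near that of all genes. A fit of only the 2 groups compared called 35 members lower, beside 16.9% of all genes, so which members were called depended on the fit. Against the libraries labelled Smc3 del/+, which share Mx1-cre and the Xist pattern of Flt3-ITD, 13 members were called lower, beside 5.34% of all genes. All 13 were among the 19, but both comparisons use the same Flt3-ITD libraries and the same fit.

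**Figure D2:**
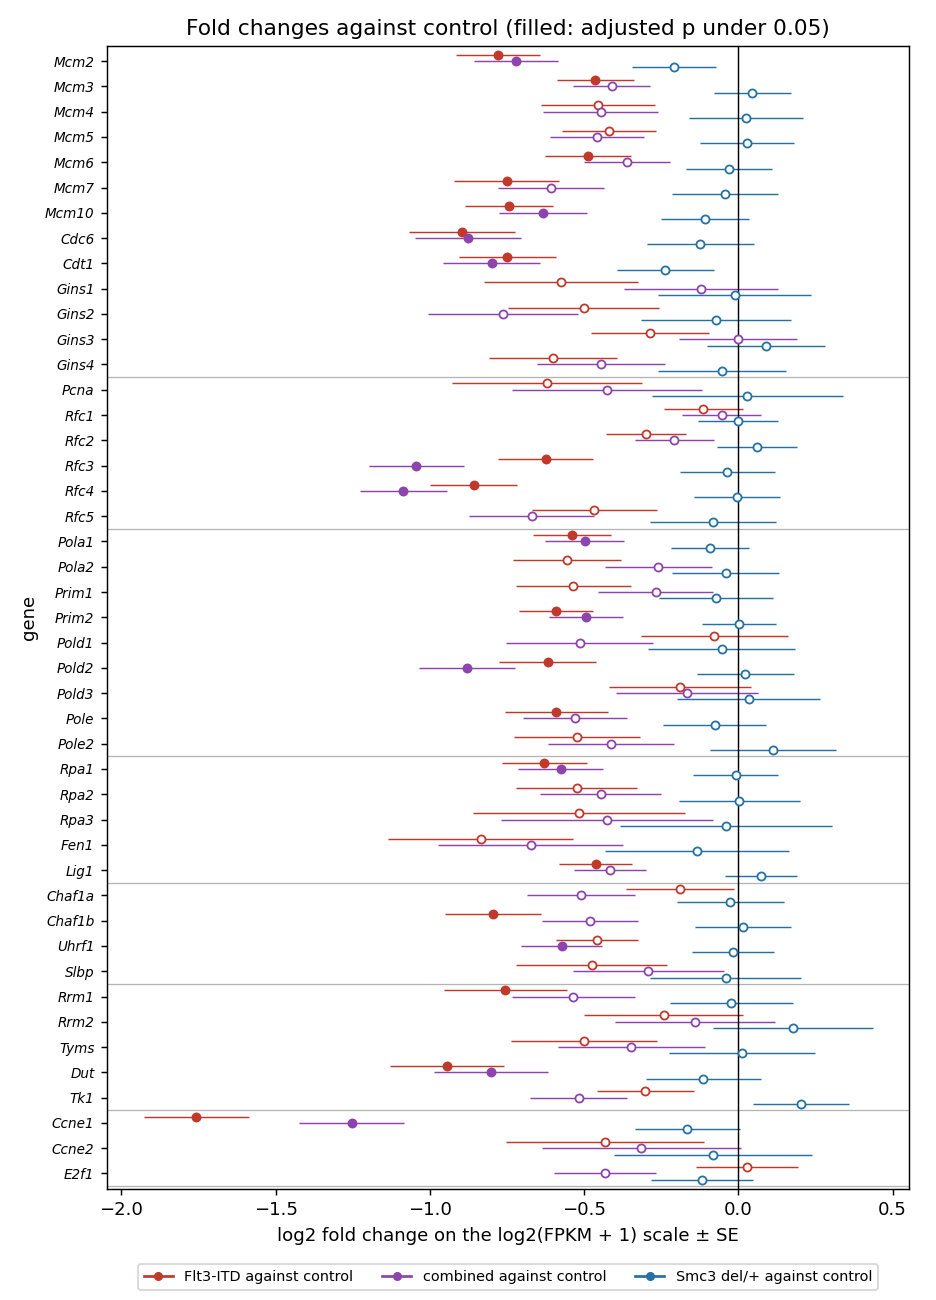
Log2 difference (x axis, on the log2(FPKM + 1) scale) of each member, grouped by class, in Flt3-ITD against control, combined against control and Smc3 del/+ against control, with bars of 1 SE and filled points for an adjusted p under 0.05. Points of the Flt3-ITD comparison lie left of 0 except for E2f1, with Ccne1 farthest at -1.76, while the Smc3 del/+ points lie between -0.24 and 0.20.

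Promoter windows of these genes are shown because E2F factors are known to drive many of them. RefSeq (GRCm38.p6) windows, from 250 bases before to 50 after a start, were found for 37 of 45 members. An E2F-type motif (TTTGGCGC or TTTCCCGC, on either strand) stood in a window of 12 of the 37, or 32.4%, beside 3.75% of the 8117 tested genes with a window. The CCAAT box was found in 56.8% of the members and in 43.6% of tested genes, and GGGCGG, an Sp1-type motif, in 78.4% and 68.9%. The TTTGAA element of G2 and mitosis genes was in 10.8% and 14.5%. All were searched on both strands, and matches to different motifs may share bases. These shares describe letters in windows and not binding. The 4 members shown have the smallest p in Flt3-ITD against control among those with an E2F-type motif before the start. Each stretch is the 250 bases before the start, 5′ to 3′ in the direction of the gene, with the motif in capitals. In Cdc6, Mcm7 and Pola1 the motif lies on the opposite strand, so that its reverse complement is printed, and Mcm6 holds TTTGGCGC at 2 places.
Cdc6 (chr11:98907901-98908150, plus strand): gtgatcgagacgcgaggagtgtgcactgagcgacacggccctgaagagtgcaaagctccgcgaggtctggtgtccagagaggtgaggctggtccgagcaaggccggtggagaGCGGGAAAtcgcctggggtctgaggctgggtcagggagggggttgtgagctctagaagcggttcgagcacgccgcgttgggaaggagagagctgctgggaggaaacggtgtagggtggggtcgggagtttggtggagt
Mcm7 (chr5:138171884-138172133, minus strand): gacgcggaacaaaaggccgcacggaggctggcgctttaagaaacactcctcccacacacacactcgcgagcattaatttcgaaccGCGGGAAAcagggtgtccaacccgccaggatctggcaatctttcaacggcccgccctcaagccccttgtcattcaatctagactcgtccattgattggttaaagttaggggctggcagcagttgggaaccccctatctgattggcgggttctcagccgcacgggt
Pola1 (chrX:93632156-93632405, minus strand): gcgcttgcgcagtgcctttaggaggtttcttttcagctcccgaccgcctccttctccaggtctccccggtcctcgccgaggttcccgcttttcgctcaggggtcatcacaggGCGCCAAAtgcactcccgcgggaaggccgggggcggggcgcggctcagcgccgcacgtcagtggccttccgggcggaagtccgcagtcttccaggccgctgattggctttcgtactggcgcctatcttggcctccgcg
Mcm6 (chr1:128359706-128359955, minus strand): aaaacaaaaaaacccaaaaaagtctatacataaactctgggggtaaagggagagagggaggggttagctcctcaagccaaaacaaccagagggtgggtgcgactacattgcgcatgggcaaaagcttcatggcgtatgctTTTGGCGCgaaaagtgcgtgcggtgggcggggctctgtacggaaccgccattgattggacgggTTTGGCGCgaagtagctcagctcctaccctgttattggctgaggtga
The motif begins 138 bases before the start in Cdc6 and Pola1, 165 in Mcm7, and 110 and 47 in Mcm6. For Mcm7 the stretch belongs to 1 of 2 starts. In Flt3-ITD against control the 12 members with the motif had a median log2 difference of -0.50 with 7 called lower, and the 25 without it a median of -0.54 with 10 called lower.

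Licensing genes held the most calls, 7 of 13, with a class median of 66.2% of the control level in Flt3-ITD. Cdc6, the loader whose promoter is shown above, measured 35.9 and 34.6 FPKM in the controls, 32.3 and 32.2 in those labelled Smc3 del/+, 18.9 and 18.0 with Flt3-ITD alone, and 15.7 and 22.3 in combined libraries. All 4 libraries with Flt3-ITD lay below the other 4, and the Flt3-ITD difference was log2 -0.90, SE 0.173, adjusted p = 0.0143. Cdt1, its partner in loading the helicase, measured 13.9 and 15.6 FPKM in the Flt3-ITD libraries and 15.8 and 12.8 in the combined ones, against 25 and 26.0 in the controls and 22.9 and 20.2 in those labelled Smc3 del/+. It was lower in Flt3-ITD (log2 -0.75, SE 0.158, adjusted p = 0.0194), again with no overlap between libraries with and without the allele. Mcm10, which helps to start the helicase, measured 26.2 and 25.6 FPKM in control cells and 24.3 and 23.6 in those labelled Smc3 del/+, with 14.7 and 15.4 in Flt3-ITD cells and 14.8 and 18.0 in combined cells. Its difference was log2 -0.74, SE 0.143, adjusted p = 0.0143.

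Subunits of the Mcm ring shifted by differing amounts. Mcm2 had 68.3 and 71.6 FPKM in the controls, 58.3 and 62.5 in those labelled Smc3 del/+, 38.2 and 42.7 with Flt3-ITD alone, and 38.7 and 45.7 in combined libraries. In it the Flt3-ITD libraries stood lowest along with the combined ones (log2 -0.78, SE 0.136, adjusted p = 0.0104), and the libraries labelled Smc3 del/+ stood between, below both controls without passing the test (log2 -0.21, SE 0.136, adjusted p = 1). Mcm7, whose promoter motif is shown above, had 87.4 and 87.9 FPKM in the Flt3-ITD libraries and 82.1 and 114 in the combined ones, against 152 and 145 in the controls and 135 and 154 in those labelled Smc3 del/+, and was lower in Flt3-ITD (log2 -0.75, SE 0.171, adjusted p = 0.0247). Combined replicate 2 was nearer to control than replicate 1 in this gene. Mcm3 had 83.1 and 88.9 FPKM in control cells and 88.5 and 88.9 in those labelled Smc3 del/+, with 60.0 and 64.2 in Flt3-ITD cells and 60.4 and 68.8 in combined cells, a narrower gap (log2 -0.46, SE 0.124, adjusted p = 0.0405). Mcm6 also passed (log2 -0.49, SE 0.139, adjusted p = 0.0487), a call lost in 11 of 15 alternative settings. Mcm4 (log2 -0.46, SE 0.185, adjusted p = 0.130) and Mcm5 did not pass. For Mcm5 the values were 77.7 and 87.8 FPKM in the controls, 83.1 and 85.3 in those labelled Smc3 del/+, 64.3 and 58.7 with Flt3-ITD alone, and 52.9 and 67.7 in combined libraries. They did not overlap between Flt3-ITD and control, yet the difference missed the threshold (log2 -0.42, SE 0.153, adjusted p = 0.0966).

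The 4 GINS subunits, which join the ring to form the working helicase, gave no call here in the fit of all 8 libraries. In a fit of only Flt3-ITD and control, Gins1 and Gins4 were called lower, beside 16.9% of all genes. Gins4 had the largest difference (log2 -0.60, SE 0.207, adjusted p = 0.0846) and Gins3 the smallest of the class (log2 -0.29, SE 0.190, adjusted p = 0.338). Gins3 was the least abundant member, with 8.25 and 11.4 FPKM in the controls, 10.7 and 10.1 in those labelled Smc3 del/+, 7.99 and 7.6 with Flt3-ITD alone, and 9.0 and 10.5 in combined libraries. Its Flt3-ITD values were the lowest 2 of the 8, close under control replicate 1, and its combined values lay within the control range.

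Of the clamp and its loader, 2 of 6 genes were called lower, and both were small loader subunits. Rfc4 measured 16.8 and 15.1 FPKM in the Flt3-ITD libraries and 14.3 and 12.7 in the combined ones, against 31.1 and 28.4 in the controls and 28.6 and 30.7 in those labelled Smc3 del/+. All 4 libraries with Flt3-ITD stood below all 4 without it (log2 -0.86, SE 0.140, adjusted p = 0.00817). Rfc3 measured 27.3 and 26.9 FPKM in control cells and 26.1 and 26.8 in those labelled Smc3 del/+, with 19.2 and 15.5 in Flt3-ITD cells and 11.7 and 13.6 in combined cells. Here the combined libraries were lower than the Flt3-ITD ones, and the Flt3-ITD difference itself was log2 -0.62, SE 0.153, adjusted p = 0.0311. Rfc2 (log2 -0.30, SE 0.129, adjusted p = 0.149) and Rfc5 (log2 -0.47, SE 0.203, adjusted p = 0.152) were not called. Rfc1, the large subunit, had the smallest difference of the class, with 47.7 and 44.3 FPKM in the controls, 44.4 and 47.5 in those labelled Smc3 del/+, 44.6 and 40.3 with Flt3-ITD alone, and 42.1 and 46.5 in combined libraries (log2 -0.11, SE 0.129, adjusted p = 0.586).

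Pcna, the clamp and the most abundant member, measured 401 and 369 FPKM in the controls, 383 and 403 in those labelled Smc3 del/+, 265 and 236 with Flt3-ITD alone, and 196 and 418 in combined libraries. Both Flt3-ITD libraries were below every control and Smc3 del/+ library, but the combined libraries held both the lowest and the highest value of all 8. With the spread shared over groups its Flt3-ITD difference was log2 -0.62, SE 0.309, adjusted p = 0.204, which missed the threshold.

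Among polymerases and primase, 4 of 9 genes were called lower, from polymerase alpha, primase, polymerase delta and polymerase epsilon. Pola1, the catalytic subunit of polymerase alpha, is encoded on the X chromosome, so that its comparison with control also carries the difference in sex. It measured 37.5 and 34.8 FPKM in the controls, 32.5 and 35.2 in those labelled Smc3 del/+, 24.5 and 24.7 with Flt3-ITD alone, and 24.3 and 26.3 in combined libraries, with a Flt3-ITD difference of log2 -0.54, SE 0.127, adjusted p = 0.0274. In the comparison of combined with control, where the Xist pattern is the same, it was also lower (log2 -0.50, SE 0.127, adjusted p = 0.0441), a call lost in 10 of 15 alternative settings. Against the libraries labelled Smc3 del/+, which share the Xist pattern of Flt3-ITD, it missed the threshold (log2 -0.45, SE 0.127, adjusted p = 0.0693). Prim2, the large primase subunit, measured 28.8 and 27.6 FPKM in the Flt3-ITD libraries and 30.9 and 29.7 in the combined ones, against 44.1 and 42.1 in the controls and 41.6 and 44.7 in those labelled Smc3 del/+ and was lower in Flt3-ITD (log2 -0.59, SE 0.120, adjusted p = 0.0172). The other primase subunit, Prim1, missed the threshold (log2 -0.54, SE 0.186, adjusted p = 0.0857).

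Pold2, an accessory subunit of polymerase delta, measured 32.7 and 27.4 FPKM in control cells and 31.3 and 29.6 in those labelled Smc3 del/+, with 19.0 and 19.3 in Flt3-ITD cells and 17.6 and 14.3 in combined cells. It was lower in Flt3-ITD (log2 -0.62, SE 0.156, adjusted p = 0.0337), and the catalytic subunit of the same enzyme was not called. That subunit, Pold1, had 16.2 and 19.7 FPKM in the controls, 17.7 and 16.7 in those labelled Smc3 del/+, 15.5 and 18.4 with Flt3-ITD alone, and 15.8 and 9.39 in combined libraries. Its Flt3-ITD values overlapped those of the controls (log2 -0.08, SE 0.239, adjusted p = 0.857), and 1 combined library stood far below the rest. Pole, the catalytic subunit of polymerase epsilon, had 14.2 and 15.8 FPKM in the Flt3-ITD libraries and 18.0 and 13.7 in the combined ones, against 22.1 and 24.1 in the controls and 20.9 and 22.8 in those labelled Smc3 del/+, and was lower in Flt3-ITD (log2 -0.59, SE 0.167, adjusted p = 0.0479). The Pole call was lost in 10 of 15 alternative settings. Pole2, the partner of Pole, was not called (log2 -0.52, SE 0.205, adjusted p = 0.117). Nor were Pola2 (log2 -0.56, SE 0.174, adjusted p = 0.0645) and Pold3 (log2 -0.19, SE 0.231, adjusted p = 0.615).

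In the class that covers single strands and joins Okazaki fragments, 2 of 5 genes were called lower. Rpa1, the large subunit of the single-strand binding protein RPA, measured 44.8 and 48.8 FPKM in the controls, 47.3 and 45.6 in those labelled Smc3 del/+, 30.2 and 29.6 with Flt3-ITD alone, and 28.1 and 34.2 in combined libraries. Its libraries with and without Flt3-ITD did not overlap (log2 -0.63, SE 0.138, adjusted p = 0.0216). The smaller subunits Rpa2 (log2 -0.52, SE 0.196, adjusted p = 0.105) and Rpa3 (log2 -0.52, SE 0.343, adjusted p = 0.339) were not called. Lig1, the ligase that seals the fragments, measured 86.4 and 87.0 FPKM in control cells and 90.0 and 92.6 in those labelled Smc3 del/+, with 65.2 and 60.2 in Flt3-ITD cells and 62.3 and 67.4 in combined cells and was lower (log2 -0.46, SE 0.117, adjusted p = 0.0338). Fen1, the flap endonuclease that trims them, measured 20.6 and 20.3 FPKM in the Flt3-ITD libraries and 15.8 and 33.3 in the combined ones, against 39.9 and 34.8 in the controls and 31.5 and 36.5 in those labelled Smc3 del/+. Its difference was the largest of the class but its combined pair differed by 1.03 on the log2 scale, and the test was missed (log2 -0.84, SE 0.299, adjusted p = 0.0932).

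Of the chromatin genes, 1 of 4 was called lower. Chaf1b, the middle subunit of the histone chaperone CAF-1, measured 33.6 and 38.4 FPKM in the controls, 37.5 and 35.2 in those labelled Smc3 del/+, 21.8 and 18.9 with Flt3-ITD alone, and 23.0 and 28.1 in combined libraries, with a Flt3-ITD difference of log2 -0.79, SE 0.155, adjusted p = 0.0151. Chaf1a, the large subunit of the same complex, had 21.5 and 18.4 FPKM in the Flt3-ITD libraries and 18.0 and 13.8 in the combined ones, against 22.4 and 23.3 in the controls and 20.6 and 24.4 in those labelled Smc3 del/+. Its Flt3-ITD values lay under both controls but within the range of the libraries labelled Smc3 del/+ in 1 of 2 mice (log2 -0.19, SE 0.174, adjusted p = 0.495). Uhrf1, which helps to copy DNA methylation, had 61.0 and 67.9 FPKM in control cells and 61.8 and 65.4 in those labelled Smc3 del/+, with 49.8 and 43.6 in Flt3-ITD cells and 41.1 and 44.9 in combined cells, just outside the threshold in Flt3-ITD (log2 -0.46, SE 0.132, adjusted p = 0.0508). Slbp, which binds the stem-loop of replication-dependent histone mRNAs, was not called (log2 -0.48, SE 0.245, adjusted p = 0.218).

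Nucleotide supply had 2 calls among 5 genes, and that of Rrm1 was lost in 10 of 15 alternative settings. Dut, the enzyme that keeps uracil out of DNA, measured 38.1 and 40.3 FPKM in the controls, 37.0 and 35.3 in those labelled Smc3 del/+, 18.8 and 21.1 with Flt3-ITD alone, and 18.2 and 26.6 in combined libraries. At log2 -0.94, SE 0.185, adjusted p = 0.0153, it had the largest difference among the members outside the G1/S regulators. Rrm1, the large subunit of ribonucleotide reductase, measured 109.5 and 97.8 FPKM in the Flt3-ITD libraries and 97.2 and 150.1 in the combined ones, against 178 and 173 in the controls and 168 and 178 in those labelled Smc3 del/+, and was lower (log2 -0.76, SE 0.2, adjusted p = 0.0388). The small subunit Rrm2 had 206 and 207 FPKM in control cells and 243 and 224 in those labelled Smc3 del/+, with 184 and 165 in Flt3-ITD cells and 137 and 254 in combined cells. Its Flt3-ITD values lay under those of the controls by a margin that missed the threshold (log2 -0.24, SE 0.259, adjusted p = 0.561), and combined replicate 2 held the highest value of all 8. Tyms, which makes thymidylate, gave log2 -0.50, SE 0.238, adjusted p = 0.185, and the thymidine kinase Tk1 gave log2 -0.30, SE 0.156, adjusted p = 0.221.

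The G1/S regulators held the extremes of the whole list. Ccne1, the cyclin E1 gene, measured 38.8 and 43.6 FPKM in the controls, 37.7 and 35.4 in those labelled Smc3 del/+, 11.1 and 11.8 with Flt3-ITD alone, and 14.3 and 19.4 in combined libraries. Its mean was 41.2 ± 3.39 FPKM (SD, n = 2) in control and 11.5 ± 0.481 in Flt3-ITD, 27.8% of control, with a difference of log2 -1.76, SE 0.170, adjusted p = 0.00166. It was the member called lower in this comparison under all 15 alternative settings. Ccne2, encoding cyclin E2, was not called (log2 -0.43, SE 0.321, adjusted p = 0.393). E2f1, a transcription factor that switches on S phase genes, had 11.1 and 11.4 FPKM in the Flt3-ITD libraries and 7.17 and 8.67 in the combined ones, against 10.2 and 11.9 in the controls and 9.84 and 10.3 in those labelled Smc3 del/+. Its Flt3-ITD libraries lay inside the control range (log2 0.03, SE 0.165, adjusted p = 0.929), the only member with a higher mean there.

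**Figure D3:**
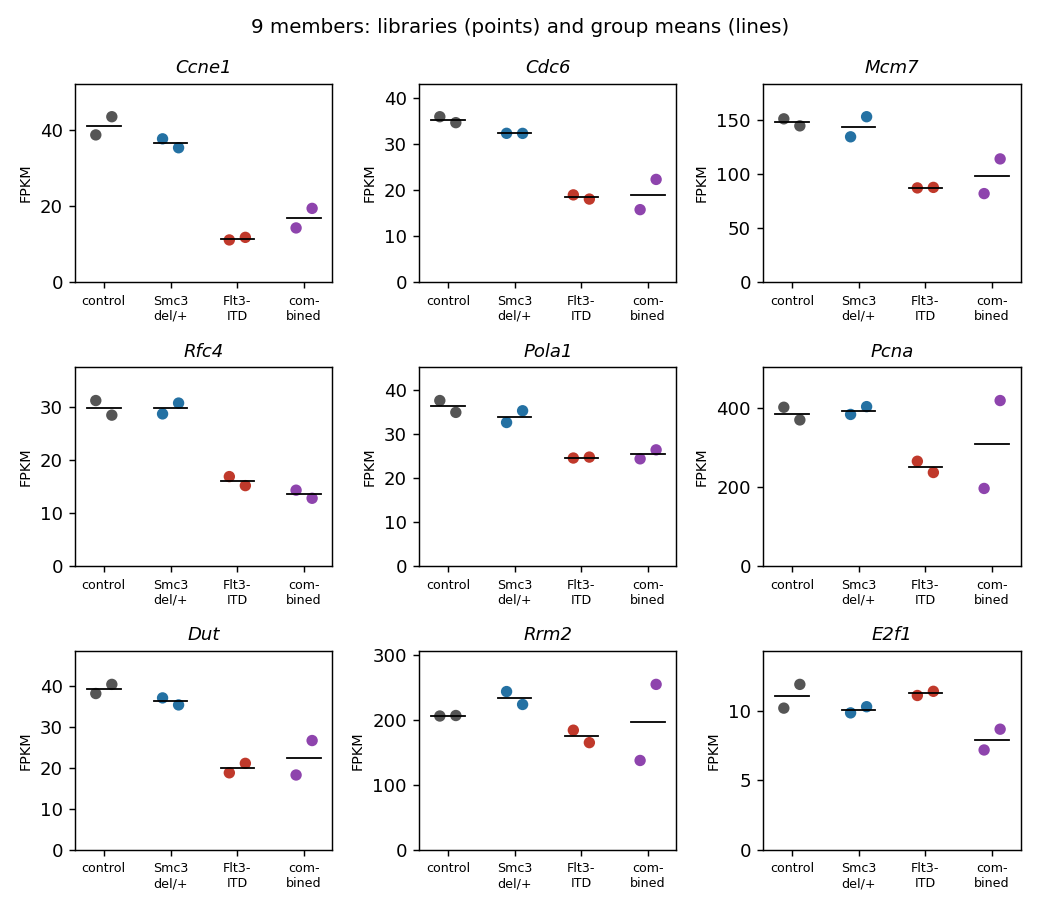
FPKM (y axis, linear from 0) in each of the 8 libraries for 9 members, with points for single mice and lines for the group means of 2. Ccne1 stands at 11.1 and 11.8 FPKM in Flt3-ITD against 38.8 and 43.6 in control, while Pcna spans 195.9 to 418.1 FPKM within the combined pair.

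Cells of the combined group were also lower in these genes than controls. By limma, 13 of 45 members were called lower and 0 higher, beside 6.38% lower and 5.41% higher over all genes. All 45 had a lower mean, and the median was -0.48, beside -0.01 over all genes. This comparison shares its controls with the one above, so neither set of calls is independent of the other. The 13 were Mcm2, Mcm10, Cdc6, Cdt1, Rfc3, Rfc4, Pola1, Prim2, Pold2, Rpa1, Uhrf1, Dut and Ccne1. Ccne1 (log2 -1.25, SE 0.170, adjusted p = 0.00718), Rfc4 (log2 -1.09, SE 0.140, adjusted p = 0.00605) and Rfc3 (log2 -1.04, SE 0.153, adjusted p = 0.00841) had the largest differences. Uhrf1, which missed the threshold in Flt3-ITD, passed here (log2 -0.57, SE 0.132, adjusted p = 0.0333). Licensing gave 4 of 13 calls, polymerases and primase 3 of 9, the clamp and loader 2 of 6, and each of the other 4 classes 1. The count fell when a control, Smc3 del/+ or Flt3-ITD library was left out and rose when a combined library was. The share of all genes called lower moved the same way. A fit of only the 2 groups called 0 members and 0.221% of all genes lower.

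The combined libraries differed from each other in these genes. Replicate 2 listed 11076 genes at 0, against 8878 to 9907 in the other libraries. Its depth, judged from steps among low values shared by 10 genes, was lowest at 0.707 of control replicate 1. With 1 library a mouse, differences between mice and between libraries cannot be told apart. Replicate 2 was higher than replicate 1 in 36 of 45 members and lower in 9. The median distance from the control mean was -0.66 in replicate 1 and -0.32 in replicate 2, whereas the Flt3-ITD libraries were at -0.52 and -0.53 and those labelled Smc3 del/+ at -0.05 and 0.02. The median absolute difference within the pair was 0.419 on the log2 scale, against 0.0812 in control, 0.0809 in Smc3 del/+ and 0.128 in Flt3-ITD. The largest gaps, with replicate 2 higher, were in Rpa3 (log2 1.21), Ccne2 (1.15), Pcna (1.09), Fen1 (1.03) and Rrm2 (0.88). The largest gaps the other way were in Pold1 (-0.69), the loader subunit Rfc5 (-0.53) and Pole (-0.37), while Pola1 differed by 0.11. In replicate 2, 13 members lay within or above the control values, and in replicate 1 there was 1.

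**Figure D4:**
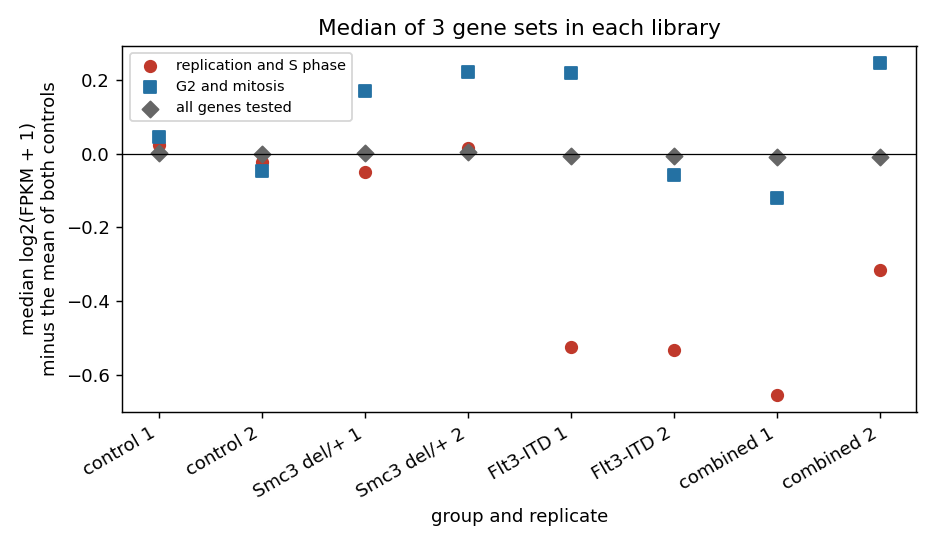
Median log2 difference from the control mean (y axis, log2(FPKM + 1) scale) in each of the 8 libraries, for the 45 replication members, 25 G2 and mitosis genes and all genes tested. The replication medians of the 4 libraries with Flt3-ITD lie between -0.66 and -0.32, and those of the G2 and mitosis genes between -0.12 and 0.25.

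Adding the Smc3 deletion to Flt3-ITD gave no call among the members. In combined against Flt3-ITD, limma called 0 of 45, beside 0.24% higher and 0.0461% lower over all genes, and 3 passed at an unadjusted p under 0.05, where 11% of all genes did. The mean was higher in 33 members and lower in 12, with a median of 0.08 and a range from -0.46 for E2f1 to 0.50. Ccne1 was at the upper end, with 16.8 ± 3.64 FPKM (SD, n = 2) in combined and 11.5 ± 0.481 in Flt3-ITD (log2 0.50, SE 0.170, adjusted p = 0.369). Without combined replicate 1, 16 members were called higher and 2 lower, but that fit also called 14.4% of all genes higher and 15.5% lower. Without replicate 2 there were 0 members, with 0.857% and 0.166% of all genes. The interaction, which asks whether the Smc3 deletion shifts a gene differently with and without Flt3-ITD, called 0 members (0.0184% of all genes in each direction). Ccne1 alone passed at an unadjusted p under 0.05, beside 9.3% of all genes (log2 0.67, SE 0.240, adjusted p = 0.460). Without combined replicate 1, 10 members passed the interaction test, 9 of them higher, in a fit that called 9.08% of all genes higher and 9.67% lower. Because Xist was high in control and combined alone, sex cannot be told apart from the interaction, nor from combined against Flt3-ITD.

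The libraries labelled Smc3 del/+ were close to control in replication genes. No member was called by limma, 0 passed at an unadjusted p under 0.05, beside 4.55% of all genes, and all adjusted p were 1. Over all genes 0% were called higher and 0.00921% lower, the latter being Xist alone. Of the members, 16 had a higher and 29 a lower mean. The median was -0.03 and the values ran from -0.24 to 0.20 with SEs between 0.117 and 0.343. Libraries of the groups did not overlap for 4 members in the higher and 8 in the lower direction, beside 24.2% and 23.2% of all genes. Ccne1 was at 36.6 ± 1.66 FPKM beside 41.2 ± 3.39 in control (log2 -0.17, SE 0.170, adjusted p = 1). The Smc3 deletion averaged over both Flt3 backgrounds also called 0 members, with 0 at an unadjusted p under 0.05 (4.84% of all genes) and a median of 0.03, beside 0% of all genes in either direction.

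Averaging the Flt3-ITD effect over both Smc3 backgrounds put 30 of 45 members past the threshold, all lower. Over all genes 12.8% were called lower and 10.9% higher. By class these were 11 of 13 licensing genes, 4 of 6 of the clamp and loader, 5 of 9 polymerase and primase genes, 4 of 5 that bind single strands or join fragments, 2 of 4 chromatin genes, 3 of 5 nucleotide genes and 1 of 3 regulators. Every member had a lower mean, with a median of -0.50, and in 27 members all 4 libraries with Flt3-ITD lay below all 4 without, as in 15.1% of all genes. Rfc4 (log2 -0.97, SE 0.104, adjusted p = 0.00139), Ccne1 (log2 -1.42, SE 0.162, adjusted p = 0.00148) and Cdc6 (log2 -0.83, SE 0.120, adjusted p = 0.00309) had the smallest p. Members that joined at this level of averaging included Mcm4 (log2 -0.46, SE 0.126, adjusted p = 0.0297), Mcm5 (log2 -0.45, SE 0.105, adjusted p = 0.0172), Fen1 (log2 -0.69, SE 0.206, adjusted p = 0.0424) and Tk1 (log2 -0.51, SE 0.129, adjusted p = 0.0225). Gins1 (log2 -0.34, SE 0.185, adjusted p = 0.212), Pcna (log2 -0.54, SE 0.209, adjusted p = 0.0960) and E2f1 (log2 -0.14, SE 0.128, adjusted p = 0.450) still missed it. Of the 30, 17 were called under all 13 alternative settings, and the count was 18 without either control library or replicate 2 of those labelled Smc3 del/+, where 6.41%, 6.71% and 7.62% of all genes were called lower.

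The authors' second, normalized table, whose spike-in totals lie at 13573 to 14697 FPKM against 9509 to 18628 in the first, gave more calls in 1 direction. In Flt3-ITD against control it called 44 members lower, but it also called 4676 genes lower and 107 higher, beside 1031 and 924 in the first table. Its median over all genes was -0.58 and that of the members -1.06. For the averaged Flt3-ITD effect the split was 4791 lower and 221 higher, against 1394 and 1187, with medians of -0.44 over all genes and -0.93 over the members. The members' median lay below that of all genes on both scales.

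Of 69 further genes of the replication pathway in 5 lists, 13 were called lower and 0 higher in Flt3-ITD against control, with a median of -0.34, beside the 9.5% of all genes called lower. The counts of the fork and chromatin lists, 2 of 18 and 1 of 8, were near that share. The lists differed in their medians: -0.15 for licensing and firing, -0.36 for fork, -0.47 for nucleotide, -0.36 for chromatin and -7.8e-05 for regulator genes. Orc2, a subunit of the origin recognition complex, measured 43.8 and 41.0 FPKM in the controls, 39.0 and 38.9 in those labelled Smc3 del/+, 17.7 and 16.2 with Flt3-ITD alone, and 14.5 and 20.5 in combined libraries (log2 -1.27, SE 0.175, adjusted p = 0.00471). Orc5 of the same complex (log2 -1.35, SE 0.334, adjusted p = 0.0318), the helicase Recql4 (log2 -1.01, SE 0.228, adjusted p = 0.0246) and Mcm8, a relative of the helicase ring (log2 -0.69, SE 0.194, adjusted p = 0.0459) completed the 4 of 16 licensing and firing genes. Fork genes gave 2 of 18, Timeless (log2 -0.77, SE 0.140, adjusted p = 0.0116), which steadies the fork, and Dscc1 (log2 -0.96, SE 0.238, adjusted p = 0.0315), of an alternative clamp loader. Nucleotide genes gave 3 of 12, all enzymes of purine or pyrimidine synthesis: Cad (log2 -1.06, SE 0.210, adjusted p = 0.0161), Gart (log2 -0.72, SE 0.128, adjusted p = 0.0110) and Impdh2 (log2 -0.76, SE 0.139, adjusted p = 0.0124). Chromatin genes gave 1 of 8, the histone acetyltransferase Hat1 (log2 -0.59, SE 0.157, adjusted p = 0.0401).

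Regulators in those lists gave 3 of 15, but 7 of the 15 had a higher and 8 a lower mean in Flt3-ITD than in control. E2f4, an E2F factor best known as a repressor, measured 38.2 and 36.2 FPKM in the Flt3-ITD libraries and 40.2 and 29.4 in the combined ones, against 75.8 and 87.3 in the controls and 69.3 and 61.9 in those labelled Smc3 del/+ (log2 -1.11, SE 0.172, adjusted p = 0.00699). The other two called were Tfdp2 (log2 -0.81, SE 0.163, adjusted p = 0.0165), an E2F partner, and E2f6 (log2 -0.61, SE 0.154, adjusted p = 0.0337), another repressor. Combined against control called 7 of the 69 lower, beside 6.38% of all genes, and the averaged Flt3-ITD effect 20 lower and 2 higher, beside 12.8% and 10.9%. The 2 that rose were Pold4, the smallest subunit of polymerase delta (log2 0.61, SE 0.138, adjusted p = 0.0156), and Samhd1, an enzyme that breaks down deoxynucleotides (log2 0.79, SE 0.193, adjusted p = 0.0203).

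Genes of G2 and mitosis, measured in the same cells, gave 0 calls of 25 by limma in Flt3-ITD against control. At an unadjusted p under 0.05 there were also 0, beside 3680 of the 10854 genes tested. Their median there was 0.08, with 20 higher and 5 lower means, but the 2 Flt3-ITD libraries differed. In replicate 1 the median was 0.22, with 19 genes above both controls and 1 below both. In replicate 2 it was -0.06, with 3 above and 13 below. In the libraries labelled Smc3 del/+ all 25 means were higher than control, with a median of 0.21 and 0 calls. None had an unadjusted p under 0.05, beside 4.55% of all genes. For the averaged Flt3-ITD effect their median was -0.04 with 0 calls and 2 at an unadjusted p under 0.05, beside 4125 of the 10854 genes tested. Whether the lists differ was not tested.

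Summed levels of blood lineage markers, measured in the same libraries, were as follows. The 12 erythroid markers summed to 1966 and 1889 FPKM in control, 1734 and 1861 in those labelled Smc3 del/+, 189 and 52.5 in Flt3-ITD mice and 162 and 585 in combined mice. Car1 and Hba-a2 made up most of the control sums, while Hba-a1 and Hbb-b1 stood at 0.01 FPKM in both controls. Epor and Alas2 were at 0 in Flt3-ITD replicate 2, and Alas2 in both combined libraries. The 8 megakaryocyte markers summed to 203 to 208 FPKM in control, 72.5 to 81.9 in Smc3 del/+ and 17.3 to 66.4 in the carriers. Gp9 and Tubb1 were at 0 in combined replicate 2, the library that listed the most genes at 0. Pax5, a defining transcription factor of B cells, was at 11 and 4.30 FPKM in control, 0.0543 and 2.12 in Smc3 del/+ and 0 in all 4 carriers. The 8 neutrophil markers summed to 79436 to 86752 FPKM in control and 142290 to 229090 in the carriers, with 104500 to 108550 in Smc3 del/+ and none at 0. Most of that sum came from S100a8, S100a9 and Ngp, and 2 of the 8 went the other way in some libraries. Mmp8 was at 162 and 198 FPKM in control, 116 and 84.5 in Smc3 del/+ and 137 in combined replicate 2. Retnlg was at 137 and 108 FPKM in control, 58.5 and 52.1 in Smc3 del/+ and 66.1 in combined replicate 2. The 6 stem and progenitor markers summed to 368 to 490 FPKM over all libraries, with none at 0, but single markers differed. Kit, the selection marker, was at 54.9 to 60.1 FPKM in control and 37.4 to 40.1 in combined, where limma called it lower (log2 -0.56, SE 0.136, adjusted p = 0.0391). Cd34 was at 49.5 to 53.4 FPKM in control and 61.7 to 86.8 in the carriers, and Gata2 at 12.7 to 13.3 and 3.27 to 7.06. The part of these markers in the replication differences was not tested.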

How the data were processed

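Messenger RNA libraries of 8 mice were read from the first of 2 tables of FPKM that the authors deposited, with 23385 rows, 92 of them ERCC spike-ins left out here. The submitters' processing notes name the mm9 build, Cufflinks 2.0.0 and TopHat without their roles, and the use of strand is not stated there. FPKM hold no read counts, so depth could only be judged from steps among low values (0.707 to 1.03 of control replicate 1, with few genes to judge by). Genes whose mean FPKM reached 1 were tested on log2(FPKM + 1), which understates changes of low genes, with limma 3.58.1 in R 4.3.3 (eBayes with trend), 4 group means over all 8 libraries (4 residual degrees of freedom), or an additive model for averaged effects (5), and Benjamini-Hochberg adjustment over all genes tested at 0.05. The procedure was tested on simulated data that gave a gene the same spread in every group. The changes planted there were larger than those of most members, so recovery of changes of the members' size was not tested. The combined pair here differed more than the other pairs, which that simulation does not cover. An exact test of 2 mice against 2 cannot go below p = 0.333, so single-gene p-values rest on the shared spread.

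Libraries were grouped by genotype label, and replicates are single mice. The 45 members and all lists were chosen with earlier results of these data known. All members may be named, and values in each library are given for the 20 called in any comparison with the smallest p and for the extremes of each class in Flt3-ITD against control, with Pcna, Orc2 and E2f4 added after their values were seen. Alternatives were another pseudocount, no filter, the second deposited table, in which FPKM were rescaled in a way that is not stated but that brings the spike-in totals close together, centring each library, a replicate block, only the groups compared, and leaving out each library. Promoter windows came from RefSeq tables and were matched by symbol. Genome coordinates of the mm9 build were not used. Of the B cell marker list only Pax5 is given, chosen after its values were seen, and the rest is not reported here.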

Additional observations from a re-analysis of the deposited data

How the results depend on the processing

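No member called in any comparison changed direction under any alternative, and Smc3 del/+ against control and the averaged Smc3 deletion called 0 members under every setting. In Flt3-ITD against control, 19 members were called, beside 9.5% of all genes lower. A pseudocount of 0.1 FPKM gave 18 beside 9.07% of all genes, no filter 16 beside 6.01% and centring 14 beside 8.4%. Only the 2 groups compared gave 35 beside 16.9%, and the normalized values gave 44 beside 43.1%. Leaving out a library moved the count as well. With Smc3 del/+ in place of the controls, an alternative chosen after seeing the data, there were 13, beside 5.34% of all genes lower. In combined against control, 13 were called: 9 with centring, 0 with only the 2 groups compared, 45 in the normalized table, and 0 to 36 without a library. Of all genes, 6.38% were called lower there in the main fit and 5.53% with centring. That share was 0.221% with only the 2 groups compared and 53.4% in the normalized table. Without a library it rose or fell as the member count did. In combined against Flt3-ITD, leaving out a library gave 0 to 18, and in the interaction 0 to 10. The averaged Flt3-ITD count of 30 became 25 with centring, 45 in the normalized table, and 18 to 40 without a library. The share of all genes called lower for that effect was 12.8% in the main fit. It was 11.1% with centring and 44.1% in the normalized table, and without a library it too rose or fell as the member count did. The interaction's median over members went from 0.13 to -0.081 without combined replicate 2 and to 0.30 without combined replicate 1. Replicate numbers do not pair the mice: correlations of same-numbered deviations ran from -0.113 to 0.023. A replicate block gave 14 calls in Flt3-ITD against control, 9 in combined against control and 29 for averaged Flt3-ITD. Those fits called 8.28%, 5.18% and 11.5% of all genes lower. Because control and combined stood at -0.113, a crossed replicate block was added after seeing the data. In combined against control it gave 8 calls, beside 5.01% of all genes lower. Causes of these shifts were not tested. With 2 mice a group and no read counts, neither single-gene spread nor counting error could be judged well.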

Other observations

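Differences between mice of a group were set against transcript properties, using the longest protein-coding GENCODE M21 transcript. Over the 45 members, combined replicate 2 minus replicate 1 had a Spearman correlation of -0.46 with GC content and -0.26 with length. The control pair gave 0.41 and 0.38, but over smaller differences. The median absolute difference of the members was 0.0812 in the control pair and 0.419 in the combined pair. Whether the relation differs between pairs was not tested. For Smc3 del/+ the values were -0.05 and 0.01, and for Flt3-ITD 0.11 and -0.13. Over the 9889 tested genes with such a transcript, the GC values were -0.27 in the combined pair and 0.25 in the control pair. For Flt3-ITD minus control the members gave 0.00 and 0.25. These are descriptions across genes, which share libraries and are not independent replicates, and the sign depends on which mouse is numbered first.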
